A study of Homo sapiens with 6 samples.

Results

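The APOBEC3 genes encode cytidine deaminases, enzymes that change cytosine to uracil in single-stranded DNA. They restrict retroviruses and mobile elements, and uracils that they leave in the genome of a tumor cell can become C-to-T and C-to-G mutations. The 7 genes, APOBEC3A to APOBEC3H, were chosen by their symbols, and 6 of them were among the 17100 transcripts of the table of RNA sequencing counts. APOBEC3A was not analysed here. The counts came from MDA-MB-231, an established human breast cancer cell line of the triple-negative type, of which 3 libraries received vehicle and the other 3 received guadecitabine (SGI-110) at 1 µM for 96 h, followed by 24 h without drug, from independent experiments. Guadecitabine is broken down in the cell to decitabine, a deoxycytidine analog that inhibits DNA methyltransferases, and the comparison asked how these genes responded to it. A single cell line and a single dose and time were examined.

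Among the family, APOBEC3C fell after guadecitabine and no other member passed the test. APOBEC3C mRNA dropped to 0.585 of its vehicle level. APOBEC3B, the other highly expressed member, did not pass the test. Whether its levels overlapped those of APOBEC3C depended on the exon length by which its counts were divided. APOBEC3D, APOBEC3F and APOBEC3G were expressed at much lower levels, and APOBEC3H was at the edge of detection. The call of APOBEC3C rested on edgeR's quasi-likelihood test, with p-values adjusted by Benjamini-Hochberg over the 13322 genes that passed a filter on low counts, and on a threshold of 0.05. By the same rule 1 of the 5 tested members was called, against 37.7% of all genes tested, and 18.4% of all genes were called lower. The groups did not overlap for 2 of the 5 tested members, APOBEC3C and APOBEC3G, against 51.6% of all genes tested.

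The measured members lie side by side on the plus strand of chromosome 22, from APOBEC3B at chr22:39378404-39388784 to APOBEC3H at chr22:39493229-39500072 (hg19), within 121669 bp. APOBEC3C lies at chr22:39410265-39414825, APOBEC3D at chr22:39417118-39429256, APOBEC3F at chr22:39436673-39451975 and APOBEC3G at chr22:39473010-39483748. Each protein carries either a single zinc-coordinating deaminase domain or a pair of them. A search of the coding sequences of the GENCODE models for the deaminase motif, in which a histidine and a glutamate are followed by a pair of cysteines, found 1 copy in APOBEC3C and APOBEC3H and 2 copies in APOBEC3B, APOBEC3D, APOBEC3F and APOBEC3G. The 30 bases that begin at the histidine codon of the last copy, and of the first copy of APOBEC3B, are shown because they show how alike the members are to a short sequencing read. They are written 5′ to 3′ from the plus strand of GRCh37, the same assembly as hg19, with the histidine and glutamate codons in capitals.
APOBEC3B, first copy, exon 3, chr22:39381838-39381867: CACgcaGAAatgtgcttcctctcttggttc
APOBEC3B, last copy, exon 6, chr22:39387370-39387399: CATgcgGAGctgcgcttcttggacctggtt
APOBEC3C, exon 3, chr22:39413792-39413821: CATgcaGAAaggtgcttcctctcttggttc
APOBEC3D, exon 6, chr22:39427720-39427749: CATgcaGAAaggtgcttcctctcttggttc
APOBEC3F, exon 6, chr22:39448100-39448129: CATgcaGAAaggtgcttcctctcttggttc
APOBEC3G, exon 6, chr22:39482317-39482346: CATgcaGAGctgtgcttcctggacgtgatt
APOBEC3H, exon 3, chr22:39497251-39497280: CATgcaGAAatttgctttattaacgagatc
APOBEC3C, APOBEC3D and APOBEC3F had 0 differences from each other over these bases. The first copy of APOBEC3B differed from them at 2 of the 30 bases and had 0 differences from the first copy of APOBEC3F. Its last copy differed from them at 14 bases and from APOBEC3G at 5.

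Because of this likeness, the count of a member can hold reads of another. Of all stretches of 50 bases in the exons, 96.5% of those in APOBEC3C occurred once in the genome, as did 100% in APOBEC3H, 87.5% in APOBEC3G, 85.1% in APOBEC3F, 77.3% in APOBEC3D and 61.5% in APOBEC3B. APOBEC3C, the member that fell, was therefore among the members least open to sharing, with 3.51% of its stretches also in APOBEC3F and 2.63% also in APOBEC3D. In APOBEC3B, 20.1% of the stretches also lay in APOBEC3A, so that reads of APOBEC3A could have entered the APOBEC3B count. Of the exon bases of APOBEC3B, 211 bp also lie in exons of the antisense gene APOBEC3B-AS1, and no source used here states that reads were counted by strand. The exon length of APOBEC3B in the table was 1130 bp, against 1538 bp in the GENCODE model, and the table does not show which of its exon bases were counted. The values of APOBEC3B, and to a lesser extent of APOBEC3D, are uncertain for these reasons.

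The libraries held 8792127 to 22277442 counts, guadecitabine replicate 2 being the least deeply sequenced. Vehicle replicate 3 stood apart, with 20 transcripts at 0 counts against 1593 to 2517 in the other 5 libraries. For the 2782 genes that vehicle replicates 1 and 2 each showed at no more than 1 count, the median in this library was 7.78 counts per kb of exon. At that rate its background would make up 0.750% of the counts of APOBEC3C and 0.869% of those of APOBEC3B, but 6.37% for APOBEC3G, 7.13% for APOBEC3D and 8.37% for APOBEC3F. Levels are given below as normalized reads per kb, that is, counts scaled between libraries by the TMM method and divided by the exon length counted. The 6 markers of the mesenchymal type of breast cancer line summed to 57628 to 71143 reads per kb in each library. The 7 luminal markers summed to 656 to 692 in vehicle and 537 to 552 after guadecitabine. VIM made up most of the mesenchymal sum, with a mean of 37553 in vehicle. EGFR, at a mean of 285 in vehicle, lay below the luminal gene ERBB2 at 350, and after guadecitabine they stood at 339 and 211. Single markers moved with the drug. CD44 and VIM rose by 1.18 and 0.33 on the log2 scale and AXL and CAV1 had -1.27 and -1.19. Of the luminal genes GATA3 rose by 0.83 and ERBB2, EPCAM and CDH1 had -0.74, -0.68 and -1.62. All of these were called by edgeR and named after their values were seen. VIM was no longer called without vehicle replicate 3 or with the replicate number as a block (adjusted p = 0.056 and 0.055, edgeR). CDH1 had -1.14 without vehicle replicate 3 and was not called with the block (adjusted p = 0.0638, edgeR). ESR1 and PGR, which encode the hormone receptors, had at most 1 count in each library other than vehicle replicate 3. Leukocytes express several APOBEC3 genes strongly, and their markers were checked for that reason. The 11 leukocyte markers in the table summed to 195, 186 and 257 reads per kb in vehicle replicates 1, 2 and 3. After guadecitabine they summed to 159 to 184. CD2, CD4 and MS4A1 had 0 counts in each library other than vehicle replicate 3. Others were present in each library, CD14 at 91 to 257 counts, CD8A at 15 to 59, LYZ at 13 to 28 and CD79A at 4 to 13. CSF1R, named after its value was seen, the receptor of a macrophage growth factor, was the only one of the 4 tested leukocyte markers that was called, with a log2 fold change of -1.32 (edgeR, adjusted p = 0.000115), and the part of these markers in the changes of the family was not tested.

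APOBEC3C encodes the single-domain member with weak activity against HIV and reported activity against LINE elements. Its RefSeq transcript in the table was NM_014508, counted over 1109 bp of exon. Its level was 945, 762 and 797 normalized reads per kb in vehicle replicates 1, 2 and 3 and 490, 409 and 561 in guadecitabine replicates 1, 2 and 3. Each guadecitabine library lay below each vehicle library, as was the case for 24.9% of all genes tested. The mean was 835 ± 97.4 in vehicle and 487 ± 75.8 after guadecitabine (SD, n = 3). The log2 fold change was -0.77 (standard error 0.141, 95% confidence interval -1.09 to -0.45, adjusted p = 0.00262 from the edgeR test). Of all genes tested, 11.2% had a log2 fold change at or below that of APOBEC3C. The two-sided exact permutation test of its normalized counts gave p = 0.1, the smallest value that 3 against 3 libraries allow. In RNA from a whole culture, fewer expressing cells and less RNA per cell cannot be told apart.

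APOBEC3B encodes the nuclear double-domain member that has been linked to mutations in breast cancer. Its level was 765, 688 and 688 reads per kb in the vehicle libraries and 789, 718 and 966 in the guadecitabine libraries. The groups overlapped, since guadecitabine replicate 2 lay below vehicle replicate 1. Guadecitabine replicates 1 and 3 lay above each vehicle library, and replicate 3 was the highest. The mean was 713 ± 44.7 in vehicle and 825 ± 128 after guadecitabine (SD, n = 3), a log2 fold change of 0.21 (95% confidence interval -0.08 to 0.50, adjusted p = 0.229, edgeR). Without guadecitabine replicate 3 the log2 fold change was 0.07, and without guadecitabine replicate 2 it was 0.30.

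**Figure D1:**
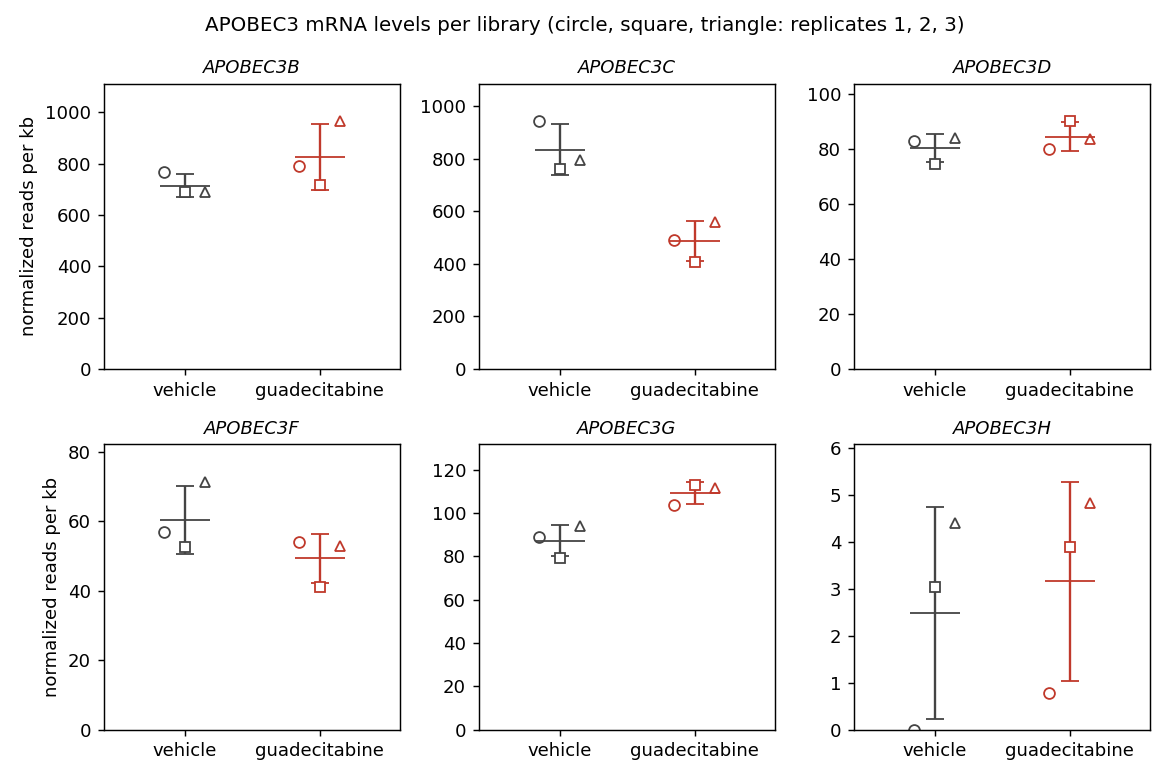
Normalized reads per kb of counted exon (linear axis from 0) of the 6 measured APOBEC3 genes in each library, with circles, squares and triangles for replicates 1, 2 and 3, and horizontal lines and bars for the mean and SD of 3 libraries. APOBEC3C sits between 762 and 945 in vehicle and between 409 and 561 after guadecitabine, while the groups of APOBEC3B, APOBEC3D, APOBEC3F and APOBEC3H overlap.

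APOBEC3G, APOBEC3F and APOBEC3D are double-domain members of the cytoplasm that can be packaged into HIV particles when the viral protein Vif is absent. APOBEC3G, the best known antiviral member, had 88.8, 79.4 and 93.9 reads per kb in vehicle and 104, 113 and 112 after guadecitabine. Each guadecitabine library lay above each vehicle library, as was the case for 26.7% of all genes tested. Its log2 fold change of 0.32 (95% confidence interval -0.003 to 0.64, adjusted p = 0.109, edgeR) did not pass the threshold. The unadjusted p of the same edgeR test was 0.0516.

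APOBEC3F had 57.0, 52.7 and 71.5 reads per kb in vehicle and 54.0, 41.2 and 52.9 after guadecitabine. The groups overlapped, and the highest value was that of vehicle replicate 3. The log2 fold change was -0.28 (95% confidence interval -0.66 to 0.09, adjusted p = 0.209, edgeR), and -0.14 without vehicle replicate 3. APOBEC3D had 82.9, 74.7 and 83.8 reads per kb in vehicle and 79.9, 90.2 and 83.5 after guadecitabine. These 6 values were interleaved, with a log2 fold change of 0.06 (95% confidence interval -0.24 to 0.37, adjusted p = 0.745, edgeR), and 0.02 without either vehicle replicate 2 or guadecitabine replicate 2.

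APOBEC3H, a single-domain antiviral member whose protein stability differs between human haplotypes, had 0, 3 and 6 counts in vehicle and 1, 2 and 5 after guadecitabine. It did not pass the filter on low counts and was not tested. The background of vehicle replicate 3 alone would give it 8.14 counts, more than the 6 that were found. A library with 0 counts allows up to 3, and a change of APOBEC3H was not detectable at this depth. This limit covers counting error only.

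The order of the members differed between the groups at its top. With the exon lengths of the table, in vehicle, APOBEC3C and APOBEC3B led with overlapping values, followed far below by APOBEC3G and APOBEC3D, which also overlapped, then by APOBEC3F and APOBEC3H. After guadecitabine the order was APOBEC3B, APOBEC3C, APOBEC3G, APOBEC3D, APOBEC3F and APOBEC3H, and no neighbours in it overlapped. With the GENCODE exon lengths, a choice made after seeing the data, APOBEC3B had 505 to 562 reads per kb in vehicle, below each value of APOBEC3C. After guadecitabine it then had 528 to 710, which overlapped with APOBEC3C at 409 to 561. By group means the order of the 6 genes was therefore the same with either set of lengths, whereas the overlaps between neighbours differed. The fold change of each gene does not depend on its length. The 6 genes summed to 1779 ± 144 reads per kb in vehicle and 1558 ± 205 after guadecitabine (SD, n = 3), and the groups overlapped. Within that sum APOBEC3C made up 46.8% ± 1.66 in vehicle and 31.2% ± 1.32 after guadecitabine, and APOBEC3B 40.2% ± 1.12 and 52.8% ± 1.27. The share of APOBEC3G was 4.92% ± 0.427 and 7.11% ± 1.00. Shares add up to 100%, so that the share of a member also moves with the levels of the others. With the GENCODE lengths the shares were 51.8% and 35.7% for APOBEC3C, 32.6% and 44.4% for APOBEC3B and 6.39% and 9.54% for APOBEC3G.

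A ratio of members within a library does not depend on how libraries are scaled. APOBEC3C had 1.24, 1.11 and 1.16 times the reads per kb of APOBEC3B in the vehicle libraries and 0.621, 0.569 and 0.580 times in the guadecitabine libraries. The spread within each group was small beside the distance between them, and the ratio was 0.506 times as large after guadecitabine. With the GENCODE lengths it was 1.51 to 1.68 in vehicle and 0.775 to 0.846 after guadecitabine, and the change between the groups was the same, since lengths cancel from it. Relative to APOBEC3G, APOBEC3C stood at 10.6, 9.59 and 8.49 in vehicle and at 4.73, 3.62 and 5.02 after guadecitabine. Relative to APOBEC3D it stood at 11.4, 10.2 and 9.51 and at 6.14, 4.53 and 6.72. Relative to APOBEC3F the ratios were 16.6, 14.5 and 11.2 in vehicle and 9.08, 9.93 and 10.6 after guadecitabine, with vehicle replicate 3 and guadecitabine replicate 3 closest to each other. In all 4 ratios the groups did not overlap, each with p = 0.1 from the two-sided exact permutation test, the smallest it can give with 3 libraries per group. These 4 ratios share the APOBEC3C counts and are not independent of each other. They were not part of the planned tests, and their numerator is the only member that was called. The ratios therefore describe the fall of APOBEC3C and do not test it separately.

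**Figure D2:**
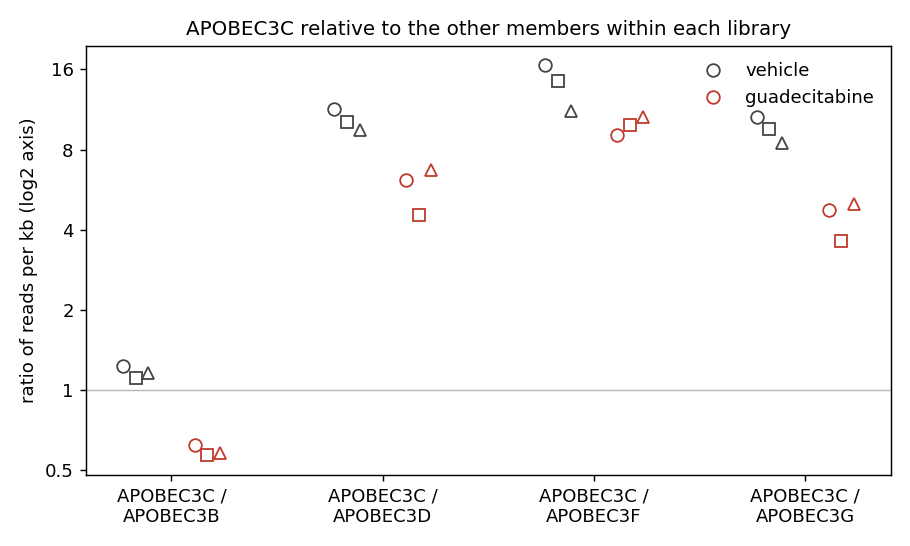
Ratio of the reads per kb of APOBEC3C to those of APOBEC3B, APOBEC3D, APOBEC3F and APOBEC3G (log2 axis) in each library, with circles, squares and triangles for replicates 1, 2 and 3. The guadecitabine libraries lie below the vehicle libraries in each ratio, and the ratio to APOBEC3B moves from 1.11 to 1.24 in vehicle to 0.569 to 0.621 after guadecitabine.

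The genes that flank the family were examined to place APOBEC3C among its neighbours on the chromosome. Within 500000 bp of the cluster the table held 20 other genes, of which 17 were tested, 4 rose and 7 fell. Their median log2 fold change was -0.28 against 0.02 over all genes tested, of which 19.3% rose and 18.4% fell. With the replicate number as a block 3 of the neighbours rose and 6 fell. When libraries were scaled by their totals 4 rose and 6 fell. CBX6 and CBX7, Polycomb chromobox genes that were the nearest measured neighbours on either side, both fell, with log2 fold changes of -0.72 and -0.77 (edgeR, adjusted p = 0.00513 and 0.00972). The change of APOBEC3C, -0.77, was of the same size as theirs, while APOBEC3B and APOBEC3D on either side of it were at 0.21 and 0.06. On the centromeric side NPTXR, a neuronal pentraxin receptor, also fell (-0.77) and JOSD1, a deubiquitinase, rose (0.67). On the telomeric side TAB1, an adaptor of the kinase TAK1, fell (-1.04) and RPS19BP1 rose (0.83). For these 4 genes edgeR gave adjusted p-values of 0.000306 to 0.00660.

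**Figure D3:**
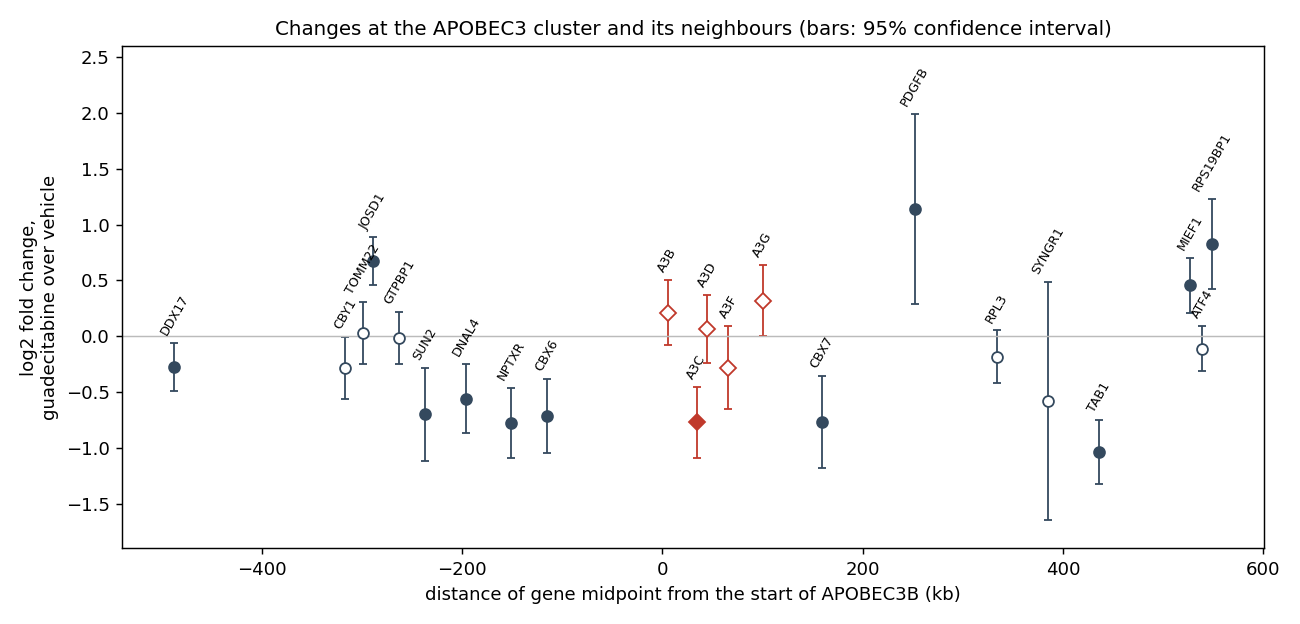
Log2 fold change (guadecitabine over vehicle) with its 95% confidence interval for the 5 tested APOBEC3 genes (red diamonds, labels with the family name shortened) and the 17 tested neighbours (blue circles), against the distance of each gene's midpoint from the start of APOBEC3B in kb, with filled symbols where edgeR gave an adjusted p under 0.05. APOBEC3C, at -0.77, is the only filled diamond, and CBX6 and CBX7 lie at -0.72 and -0.77.

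Members of the family are known to respond to NF-kB, to the DREAM and B-MYB cell cycle complexes and to interferon, and genes of these pathways were counted beside the family. Of the 5 NF-kB subunits 4 rose and 0 fell, with a median log2 fold change of 0.77, and 19.3% of all genes tested rose. NFKB2 and RELB, the pair of the noncanonical pathway, which has been linked to APOBEC3B transcription, had log2 fold changes of 1.61 and 1.56, and NFKB1 had 0.77 (edgeR, adjusted p = 8.59e-06, 0.000167 and 0.000326). RELA, named after its value was seen, had 0.36, and without vehicle replicate 3 it was no longer called (adjusted p = 0.0530, edgeR), whereas REL, at 0.69 and not called, was called without it (1.20, adjusted p = 0.00302, edgeR). In these libraries APOBEC3B stood at 0.21 (95% confidence interval -0.08 to 0.50) without passing the test. Whether the subunits acted on APOBEC3B was not tested.

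Of the 13 genes of the DREAM and B-MYB list 2 rose and 4 fell, with a median log2 fold change of 0.10, and 37.7% of all genes tested were called in either direction. MYBL2, which encodes B-MYB, rose by 0.59, whereas FOXM1, a mitotic activator, and RBL2, a repressive pocket protein of DREAM, had log2 fold changes of -0.62 and -0.44 (edgeR, adjusted p = 0.00134, 0.00106 and 0.0144). Of the 11 genes of interferon receptor signalling 3 rose and 2 fell, with a median of 0.08, also near that background. JAK1, a receptor-bound kinase, rose by 0.66 on the log2 scale, and STAT2, a transcription factor of the type I response, had -0.40 (edgeR, adjusted p = 0.00153 and 0.0138). IFNAR1, which rose by 0.51, and TYK2, at -0.44, were named after their values were seen.

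Other enzymes of the deaminase superfamily gave little to set beside APOBEC3C. APOBEC1, APOBEC2 and APOBEC4 did not pass the filter on low counts. APOBEC4 had 29 counts in vehicle replicate 3 and 0 to 2 in the other libraries. APOBEC1 had 14 counts in vehicle replicate 3 and 0 in the others, and APOBEC2 had 1 to 15. ADAR and ADARB1, which deaminate adenosine in RNA and are the 2 tested genes of their list, had log2 fold changes of 0.07 and 0.20 without being called (edgeR, adjusted p = 0.591 and 0.219). Among 13 other retroviral restriction factors 3 rose and 4 fell, with a median log2 fold change of -0.29, against 19.3% of all genes that rose and 18.4% that fell. ZC3HAV1, an antiviral zinc finger protein, rose by 0.86, and IFITM1 and IFITM2, which block viral entry, had -0.96 and -0.87 (edgeR, adjusted p = 0.000654, 0.000130 and 0.000793).

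Uracils made by APOBEC3 enzymes are removed by glycosylases and repaired by base excision. Of the 12 genes of this list 2 rose and 2 fell, with a median log2 fold change of -0.08, near the 37.7% of all genes that were called. UNG, the main uracil DNA glycosylase, is given for its role and had a log2 fold change of -0.13 (edgeR, adjusted p = 0.439). POLB, the gap-filling polymerase, rose by 1.06, and XRCC1, the scaffold of the repair, and DUT, which keeps dUTP out of the nucleotide pool, had -0.75 and -0.70 (edgeR, adjusted p = 0.000138, 0.00137 and 0.0408). APEX2, named after its value was seen, rose by 0.31, a call that was lost without vehicle replicate 3 (0.28, adjusted p = 0.0925, edgeR). Among the 8 genes of translesion synthesis, which copies past abasic sites, 0 rose and 1 fell, beside the same background, and the median was -0.03. This was PRIMPOL, a repriming polymerase, with -0.54, which was also no longer called without vehicle replicate 3 (adjusted p = 0.0639, edgeR) or when libraries were scaled by their totals (adjusted p = 0.0720, edgeR).

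**Figure D4:**
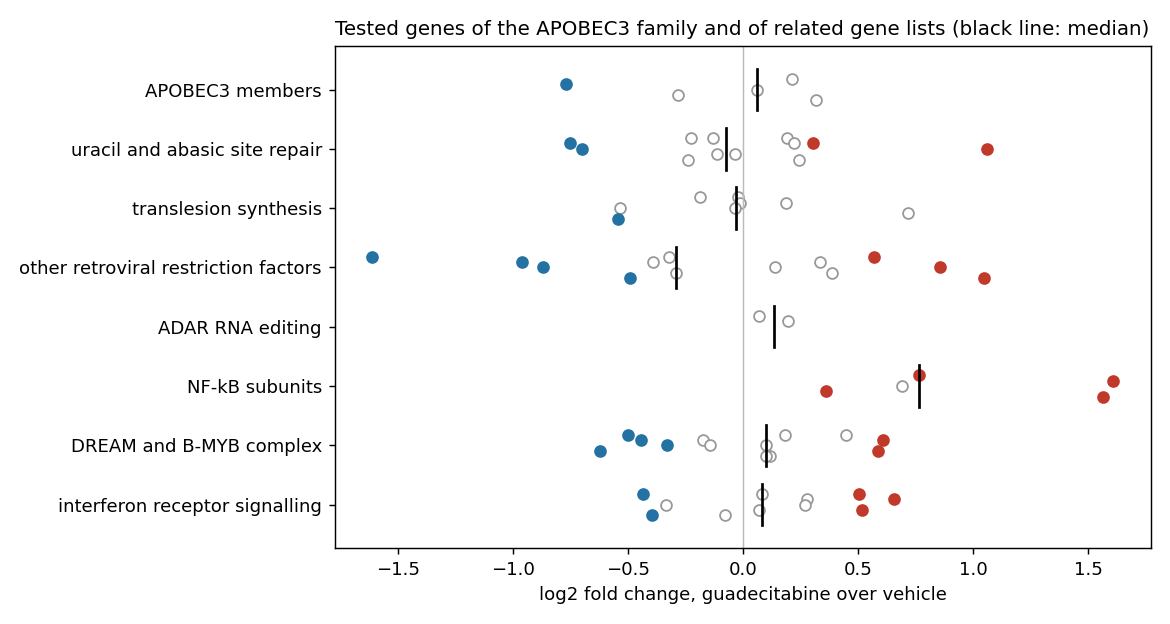
Log2 fold change (guadecitabine over vehicle) of each tested gene of the APOBEC3 family and of 7 related lists, with filled red points for genes that rose, filled blue points for genes that fell and open points for genes that were not called at 0.05 by edgeR after adjustment, and a black line at each median. APOBEC3C is the filled point of the family at -0.77, and the NF-kB subunits have the highest median, 0.77.

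Genes whose levels followed those of APOBEC3C most closely were found by Pearson's correlation of log2 normalized counts over the 6 libraries, given as a description. BTN3A1, a butyrophilin, had r = 0.996, CAP2, an actin regulator, r = 0.994 and AP2B1, a clathrin adaptor subunit, r = 0.994, and 285 tested genes had r above 0.95. BTN3A1 itself was not called, with a log2 fold change of -0.23 (adjusted p = 0.0987, edgeR). CAP2 and AP2B1 were called lower, with -0.45 and -0.55. APOBEC3B had the highest mean level of the tested members by the exon lengths of the table, though not by the GENCODE lengths. Its closest genes were PFDN5 with r = 0.986, TRNAU1AP with 0.979 and EIF3I with 0.977, and 8 genes had r above 0.95. The 6 libraries form 2 groups, so that genes that clearly fell after guadecitabine tend to follow APOBEC3C. Genes that clearly rose tend to run opposite to it.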

How the data were processed

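The 3 vehicle and 3 guadecitabine RNA sequencing libraries were assigned to conditions by their labels. Alignment by the authors used STAR 2.3.1z and the hg19 genome, and iRNA-seq gave exon counts for each RefSeq transcript, which the authors deposited as raw counts without normalization. The exon length counted, in bp, was deposited beside the counts. The authors also deposited regularized log2 values and the log2 fold changes and p-values of their DESeq2 comparison, which were not used here. Read length, and how reads with several possible positions were handled, are not given in the sources used here. Deposited starts count from 0 and are printed from 1.

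Genes with low counts were removed by filterByExpr (minimum count 10), and the remaining 13322 genes were scaled by TMM and tested by quasi-likelihood in edgeR 4.0.16 (R 4.3.3), followed by Benjamini-Hochberg adjustment over all of them. Standard errors came from the quasi-likelihood F statistic. Levels were TMM normalized counts scaled to the mean library total of 17911210 and divided by the counted exon length in kb. The fit was tested on simulated data. No library duplicated another. Exons were those of the MANE Select transcripts of the GENCODE annotation lifted to GRCh37, cut to the deposited span, and stretches of bases were counted on both strands of the assembled chromosomes with Python 3.11.15.

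The members and lists were chosen with earlier results of these data known. The text names all measured members, up to 3 genes with the smallest adjusted p among those called in each list, up to 6 called neighbours, and the 3 genes most like each of 2 members. Alternatives were a replicate block, DESeq2 1.42.0, its size factors, library totals, other filters, a background subtracted from vehicle replicate 3 and each library left out. Some genes named by this rule are not reported here. For the ratios, and for the GENCODE exon lengths, the alternatives were chosen after seeing the data.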

Additional observations from a re-analysis of the deposited data

How the results depend on the processing

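APOBEC3C was lower with an adjusted p under 0.05, and no other APOBEC3 gene was called, under each of the 13 alternatives run for the test. Its log2 fold change was -0.78 with the replicate number as a block (edgeR, adjusted p = 0.00182) and -0.78 with the Wald test of DESeq2, and it stayed between -0.89 and -0.67 with each library left out in turn (edgeR, adjusted p of 0.00266 to 0.0153). With each library left out, the log2 fold change lay between 0.07 and 0.30 for APOBEC3B, 0.02 and 0.10 for APOBEC3D, -0.37 and -0.14 for APOBEC3F and 0.26 and 0.38 for APOBEC3G. The log2 ratio of APOBEC3C to APOBEC3B differed between the groups by -1.02 to -0.94, and its ratio to APOBEC3F, the least stable of the 4, by -0.65 to -0.37. Same-numbered libraries had correlations of their deviations from the group means of -0.038, 0.038 and -0.032, and 1 of the 3 vehicle libraries correlated best with its own number, so that the numbers were not taken as pairs. Over all genes tested, 2576 were higher and 2446 lower, and 2424 and 2230 with the replicate block. With each library left out in turn there were 1706 to 3002 higher and 1629 to 2575 lower genes, the lowest counts being those without guadecitabine replicate 3. With the block, the translesion list had 1 higher gene, POLK (0.64, adjusted p = 0.0329, edgeR), and 0 lower, and PRIMPOL was not called (-0.54, adjusted p = 0.0757), nor were APEX2 and RELA (adjusted p = 0.0713 and 0.0524), which left 1 higher gene of base excision and 3 NF-kB subunits. With the GENCODE exon lengths the mean level in vehicle and after guadecitabine was 524 and 606 reads per kb for APOBEC3B and 102 and 128 for APOBEC3G. APOBEC3H, at 6 counts or fewer in each library, was limited by depth.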
